A study of Mus musculus with 8 samples.

Results

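NF-kappaB is a family of dimeric transcription factors that drive inflammatory and survival genes in myeloid cells, and the genes described here are its DNA-binding subunits (Nfkb1, Nfkb2, Rel, Rela and Relb), 4 genes that restrain or tune it (the IκB family genes Nfkbia, Nfkbie and Nfkbiz, and Tnfaip3) and the cytokine gene Tnf. These 10 genes were chosen by name, with earlier results of these data known. Every probe set that the platform annotation used here assigns to one of them was taken. Of 45037 probe sets tested on the array, 18 belonged to 9 of the 10 genes: 5 to Nfkbia, 3 to Nfkbiz, 2 each to Nfkb2, Nfkbie and Tnfaip3, and 1 each to Rel, Rela, Relb and Tnf. Nfkb1 was not analysed here.

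In resting cells most NF-kappaB dimers are held inactive by IκB proteins. Signals from TNF receptors, Toll-like receptors and sensors of double-stranded RNA activate a kinase complex that marks IκB for destruction, and the freed dimers enter the nucleus. Several genes that they switch on encode their own inhibitors, among them Nfkbia (IκBα), Nfkbie (IκBε) and the ubiquitin-editing enzyme A20 (Tnfaip3), so the level of these transcripts is often read beside that of NF-kappaB target genes. In myeloid cells the pathway is known for cytokine production and for survival.

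The cells came from the bone marrow of mice of mixed background (FVB+ C57BL6) at 8 weeks of age, and were sorted by FACS for Cd11b, an integrin subunit found on monocytes and granulocytes. The 4 control samples were E2F1-/-2+/+3f/f, that is, null for E2f1 with floxed E2f3 and intact E2f2. The 4 experimental samples were Mxcre;E2F1-/-2-/-3f/f, which adds the loss of E2f2 and the transgene Mx-Cre. Its promoter is interferon-responsive and active in many cell types. The floxed E2f3 is the target of Cre in this group, and how far it was excised was not analysed here. Every mouse, control mice included, was given pIpC, a synthetic double-stranded RNA, in 5 injections of 250 µg, and was killed 24 h after the final dose. No group lacked pIpC or the E2f1 deletion, and Cre was present in every experimental sample and in no control, so effects of Cre and of the E2f genotype cannot be told apart. The labels do not say that the samples came from separate animals, so the spread that p-values rest on may partly be technical.

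All values are log2 values per probe set as the authors made them with RMA, and differences are experimental minus control. The median of each array lay between 5.01 and 5.04. E2f2, null in the experimental group only, ranged from 7.76 to 8.19 in controls and from 7.06 to 7.47 in experimental arrays at probe set 1455790_at (adjusted p = 0.0351). At 1436434_at it ranged from 9.54 to 10.20 in controls and from 9.08 to 9.53 in experimental arrays (adjusted p = 0.107). The position of these probe sets relative to the deleted part was not analysed here. Itgam, which encodes the sort marker Cd11b, was at 11.58 ± 0.07 in the control group and at 11.54 ± 0.27 in the experimental group (SD, n = 4). By the levels of Xist and Eif2s3y, 2 control samples (replicates 1 and 3) and 1 experimental sample (replicate 2) were male. The granule genes Camp (14.46 ± 0.02 in controls) and Mpo (12.92 ± 0.45) were also high, as in granulocytes and their precursors.

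The windows around the annotated transcription starts of 4 members are shown because these genes encode the subunit and the inhibitors on which the results turn: Tnfaip3, Nfkbie and Rel fell, and Nfkbia did not pass the test. Each runs from 250 bases before to 50 bases after the start, 5′ to 3′ along the gene, from RefSeq on GRCm38.p6, and capitals mark matches to the 10-base NF-kappaB (kappaB) consensus on either strand.
Tnfaip3 (chr10:19015361-19015660, minus strand): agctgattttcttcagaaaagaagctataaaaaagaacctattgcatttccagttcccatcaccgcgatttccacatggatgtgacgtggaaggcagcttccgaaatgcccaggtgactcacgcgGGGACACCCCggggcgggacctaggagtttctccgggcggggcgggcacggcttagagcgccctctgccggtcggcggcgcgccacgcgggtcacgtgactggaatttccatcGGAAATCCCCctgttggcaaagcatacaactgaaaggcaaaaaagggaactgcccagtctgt
Nfkbie (chr17:45555450-45555749, plus strand): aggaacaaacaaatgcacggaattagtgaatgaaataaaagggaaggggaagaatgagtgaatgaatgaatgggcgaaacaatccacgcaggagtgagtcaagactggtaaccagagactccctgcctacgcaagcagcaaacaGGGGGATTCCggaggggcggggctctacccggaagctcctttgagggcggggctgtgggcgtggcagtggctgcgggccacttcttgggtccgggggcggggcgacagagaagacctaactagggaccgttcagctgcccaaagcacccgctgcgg
Rel (chr11:23770920-23771219, minus strand): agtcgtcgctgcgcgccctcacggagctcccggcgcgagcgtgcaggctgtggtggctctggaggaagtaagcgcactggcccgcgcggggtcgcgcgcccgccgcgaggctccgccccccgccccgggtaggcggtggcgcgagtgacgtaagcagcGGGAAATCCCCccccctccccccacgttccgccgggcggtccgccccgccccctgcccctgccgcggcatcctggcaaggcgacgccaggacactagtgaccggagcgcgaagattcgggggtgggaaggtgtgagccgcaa
Nfkbia (chr12:55492598-55492897, minus strand): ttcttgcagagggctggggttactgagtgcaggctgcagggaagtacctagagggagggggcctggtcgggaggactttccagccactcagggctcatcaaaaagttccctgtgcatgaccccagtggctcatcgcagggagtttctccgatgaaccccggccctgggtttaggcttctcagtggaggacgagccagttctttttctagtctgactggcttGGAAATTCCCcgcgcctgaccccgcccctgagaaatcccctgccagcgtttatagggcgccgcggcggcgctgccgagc

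RefSeq windows were matched for 7 of the 10 genes (Nfkb2, Rel, Rela, Nfkbia, Nfkbie, Tnfaip3 and Tnf), and 5 of the 7 held the consensus in at least 1 window, against 5.14% of the 27025 genes with a window. By window it was 7 of 10, against 4.51% of 32851 windows. The Tnfaip3 window shown held 2 matches, GGGGATTTCC on the minus strand of the gene, 12 bases before the start, and GGGACACCCC on the plus strand, 125 bases before it, and the other Tnfaip3 window of the table held none. The Nfkbie window held GGGGGATTCC, 106 bases before the start, and the Nfkbia window GGGAATTTCC on the minus strand of the gene, 29 bases before the start. In Rel, 3 matches on both strands overlapped within 11 bases, among them GGGATTTCCC. Nfkb2 held matches in each of its 3 windows. The window of Rela and that of Tnf held none. A match describes the letters of a window and not a site in use. The consensus was present in windows of members that fell and in those of Nfkb2 and Nfkbia, which did not pass.

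Rel, Nfkbie and Tnfaip3 were lower in the experimental samples, by 1.58-fold, 2.18-fold and 1.98-fold at the brightest probe set of each gene, and Nfkbiz fell at 1 of its 3 probe sets. Rela, Nfkbia and Tnf, among the best-known genes of the pathway, did not pass, with differences of -0.09, -0.06 and -0.02 on the log2 scale. By brightest probe set, 3 of 9 genes fell and none rose, against 1.95% of 18193 genes that fell and 3.47% that changed in either direction. By probe set, 6 of 18 fell and none rose, against 1.55% of all 45037 probe sets that fell, 1.03% that rose and 2.58% in either direction (limma, adjusted p 0.05). The groups were fully apart, with the experimental arrays lower, in 7 of the 18 probe sets, against 6.15% of all probe sets, and in 4 of the 9 genes by brightest probe set, against 6.79% of genes. The median difference was -0.39 over the 9 genes and 0.01 over all genes. The genes were chosen with earlier results of these data known, so these shares are a description and not a test of the set.

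**Figure D1:**
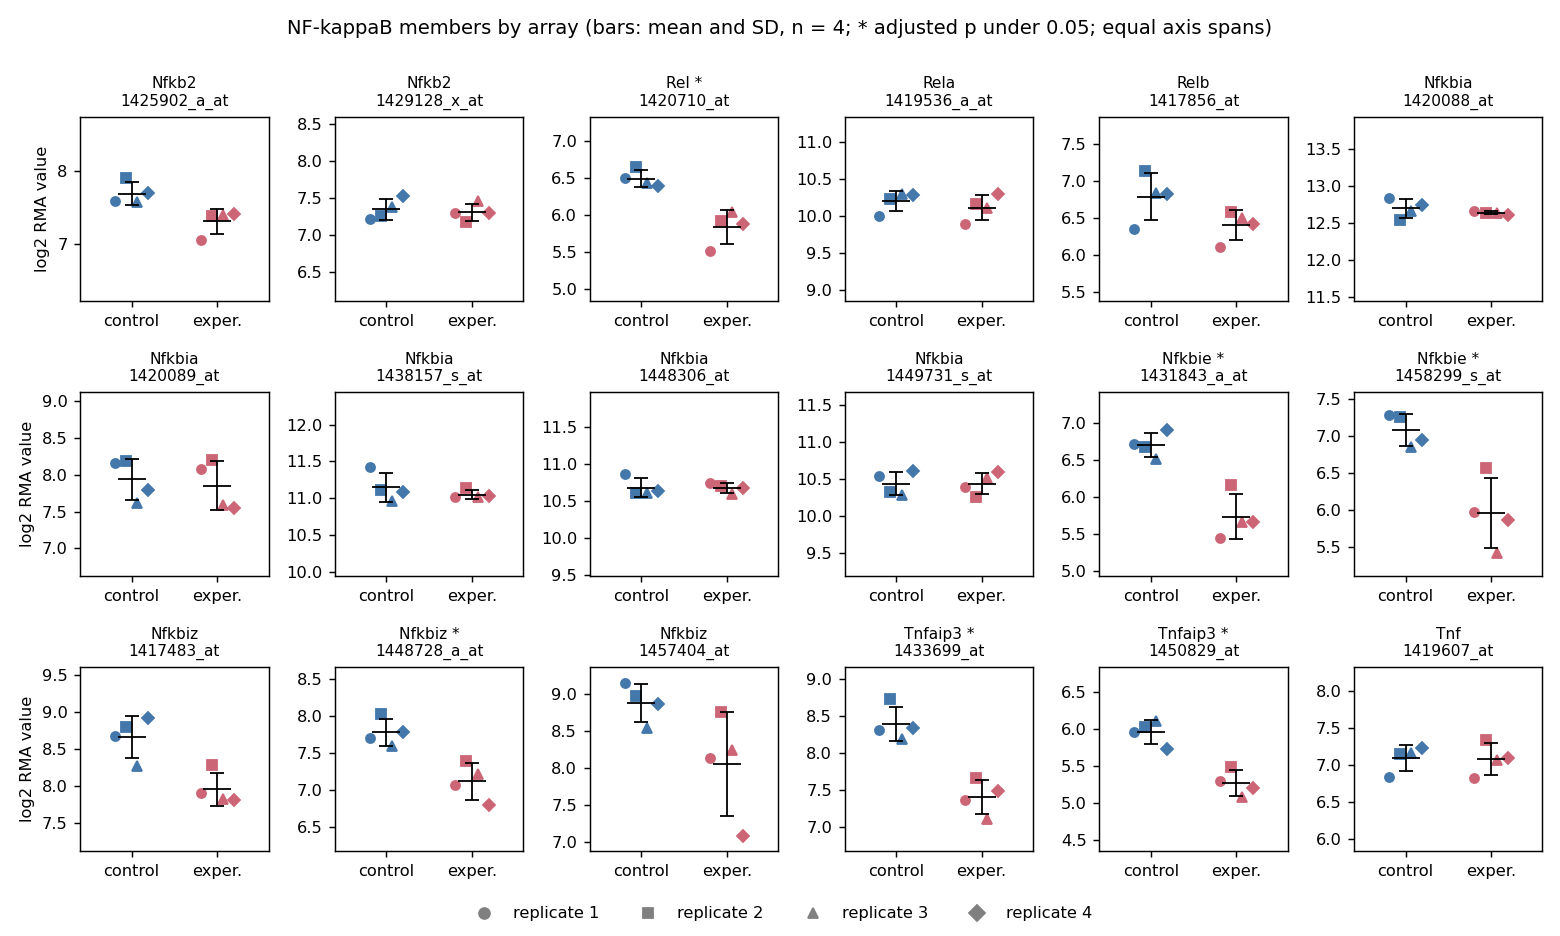
The log2 RMA value of each of the 18 member probe sets (vertical axis, equal spans of 2.5 units) is shown for control and experimental arrays, with 1 symbol per replicate number and bars for the mean and SD of 4 arrays. The arrays of Rel, of both Nfkbie probe sets and of both Tnfaip3 probe sets do not overlap between the groups, while those of Rela, of all 5 Nfkbia probe sets and of Tnf do.

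The subunits were taken first. Rel encodes c-Rel, a subunit with a transactivation domain that is prominent in cells of the blood lineages. At 1420710_at it read 6.51, 6.65, 6.43 and 6.39 in control replicates 1 to 4 and 5.51, 5.92, 6.04 and 5.88 in experimental replicates 1 to 4. Every experimental array lay below every control, and experimental replicate 1 was the lowest. The difference was -0.66 ± 0.12 (SE, 63.4% of the control level, adjusted p = 0.0275), with a two-sided exact permutation p of 0.0286, the smallest that 4 against 4 arrays allow. The call was lost without control replicate 1 (adjusted p = 0.0808), 2 (0.0913), 3 (0.0571) or 4 (0.0669) or experimental replicate 4 (0.0633), and with the sex inferred from Xist and Eif2s3y as a block (0.0596; 0.0177 to 0.0913 over the alternatives other than those within 1 code style).

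Rela, which encodes p65, the main activating partner of the classical pathway, did not pass. Its values at 1419536_a_at were 9.99, 10.23, 10.29 and 10.28 in controls and 9.89, 10.16, 10.10 and 10.29 in experimental arrays. The groups overlapped almost fully, and the difference was -0.09 ± 0.11 (SE) with a 95% interval of -0.34 to 0.16 (adjusted p = 0.746).

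Relb and Nfkb2 (p100, processed to p52) form the main dimer of the alternative pathway. Relb read 6.36, 7.13, 6.84 and 6.83 in controls and 6.11, 6.58, 6.49 and 6.42 in experimental arrays at 1417856_at. Control replicate 1 lay among the experimental values, and the difference of -0.39 ± 0.17 did not pass (adjusted p = 0.274). Nfkb2 at 1425902_a_at read 7.58, 7.90, 7.57 and 7.70 in controls and 7.06, 7.39, 7.40 and 7.41 in experimental arrays. The groups did not overlap, but the difference of -0.37 ± 0.12 did not pass (adjusted p = 0.136). The other Nfkb2 probe set, 1429128_x_at, gave overlapping groups (-0.04 ± 0.10, adjusted p = 0.894), so the 2 probe sets of this gene differed in what they showed.

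Among the inhibitors, Tnfaip3 had the smallest p. It encodes A20, which edits ubiquitin chains on signalling proteins upstream of the IκB kinases and thereby ends the signal. At 1433699_at it read 8.32, 8.74, 8.19 and 8.34 in controls and 7.37, 7.67, 7.11 and 7.49 in experimental arrays. The highest experimental array lay below the lowest control, and the difference was -0.99 ± 0.15 (SE, 50.4% of the control level, adjusted p = 0.0123, two-sided exact permutation p = 0.0286). It passed in each of the 8 fits that leave out 1 array (adjusted p = 0.0117 to 0.0422). The dimmer probe set 1450829_at read 5.96, 6.02, 6.10 and 5.73 in controls and 5.29, 5.48, 5.07 and 5.20 in experimental arrays. The groups were again apart (-0.69 ± 0.12, adjusted p = 0.0197), and the call was lost without control replicate 1 (0.0623), 2 (0.0687) or 3 (0.0515) or experimental replicate 4 (0.0556).

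Nfkbie encodes IκBε, which like IκBα holds dimers in the cytoplasm and is itself induced by NF-kappaB. At 1458299_s_at it read 7.28, 7.26, 6.85 and 6.95 in controls and 5.98, 6.57, 5.42 and 5.87 in experimental arrays. At 1431843_a_at it read 6.72, 6.67, 6.52 and 6.90 in controls and 5.45, 6.17, 5.66 and 5.66 in experimental arrays. At both probe sets every experimental array lay below every control, and experimental replicate 2 came closest to the controls. The differences were -1.13 ± 0.22 (45.8% of the control level, adjusted p = 0.0303) and -0.97 ± 0.15 (51.1%, adjusted p = 0.0148). At 1431843_a_at the call was lost without control replicate 4 alone of the 8 arrays (0.0511). At the brighter probe set it was lost on leaving out control replicate 1 (0.0917), 2 (0.101), 3 (0.0519) or 4 (0.0742) or experimental replicate 1 (0.0733) or 4 (0.0770), and with inferred sex as a block (0.0561).

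Nfkbiz encodes IκBζ, a nuclear IκB that acts as a coactivator of a subset of NF-kappaB genes. At 1448728_a_at it read 7.70, 8.04, 7.61 and 7.79 in controls and 7.08, 7.40, 7.22 and 6.81 in experimental arrays. These groups did not overlap, and the difference of -0.66 ± 0.14 passed (adjusted p = 0.0438). At 1417483_at it read 8.68, 8.80, 8.27 and 8.92 in controls and 7.91, 8.28, 7.82 and 7.81 in experimental arrays. Here 1 experimental array lay just above the lowest control, and the difference of -0.71 ± 0.16 missed the threshold (adjusted p = 0.0511; 0.0252 with the replicate number as a block). At the brightest probe set, 1457404_at, the control values of 9.16, 8.98, 8.54 and 8.87 met experimental values of 8.14, 8.76, 8.24 and 7.09. The experimental arrays were spread over more than 1.5 units there, and the difference of -0.83 ± 0.30 did not pass (adjusted p = 0.196). It was -0.51 without experimental replicate 4, the lowest array (adjusted p = 0.240). The call at 1448728_a_at held among the fits that leave out 1 array only without experimental replicate 2 (0.0254; 0.0627 to 0.129 without each of the others), and it was lost with inferred sex as a block (0.0876).

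Nfkbia encodes IκBα, the most rapidly resynthesised of the inhibitors. At its brightest probe set, 1420088_at, it read 12.84, 12.55, 12.66 and 12.75 in controls and 12.66, 12.64, 12.64 and 12.61 in experimental arrays. The experimental values fell within the control range, and the difference was -0.06 ± 0.09 with a 95% interval of -0.26 to 0.14 (adjusted p = 0.788). The highest value of each array lay between 14.36 and 14.54, above this probe set, but its mean ranked at percentile 99.5 of all probe sets. Whether the signal is compressed at that level was not tested. The other 4 Nfkbia probe sets had differences of -0.10 to 0.00, overlapping groups in each, and adjusted p values of 0.709 to 0.997. Their wider intervals reached from -0.50 to 0.33 at 1420089_at, the dimmest. The 95% intervals of Nfkbia at 1420088_at and of Tnfaip3 at 1433699_at (-1.33 to -0.65) did not meet, though the difference between both genes was not tested.

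Tnf encodes the cytokine that both activates NF-kappaB through its receptors and is a target of it. At 1419607_at it read 6.84, 7.14, 7.15 and 7.23 in controls and 6.81, 7.33, 7.06 and 7.09 in experimental arrays. The groups overlapped fully, and the difference was -0.02 ± 0.13 with a 95% interval of -0.31 to 0.28 (adjusted p = 0.969). Its sign turned with median centring (0.0003) and with quantile normalization (0.01), so no direction can be given.

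**Figure D2:**
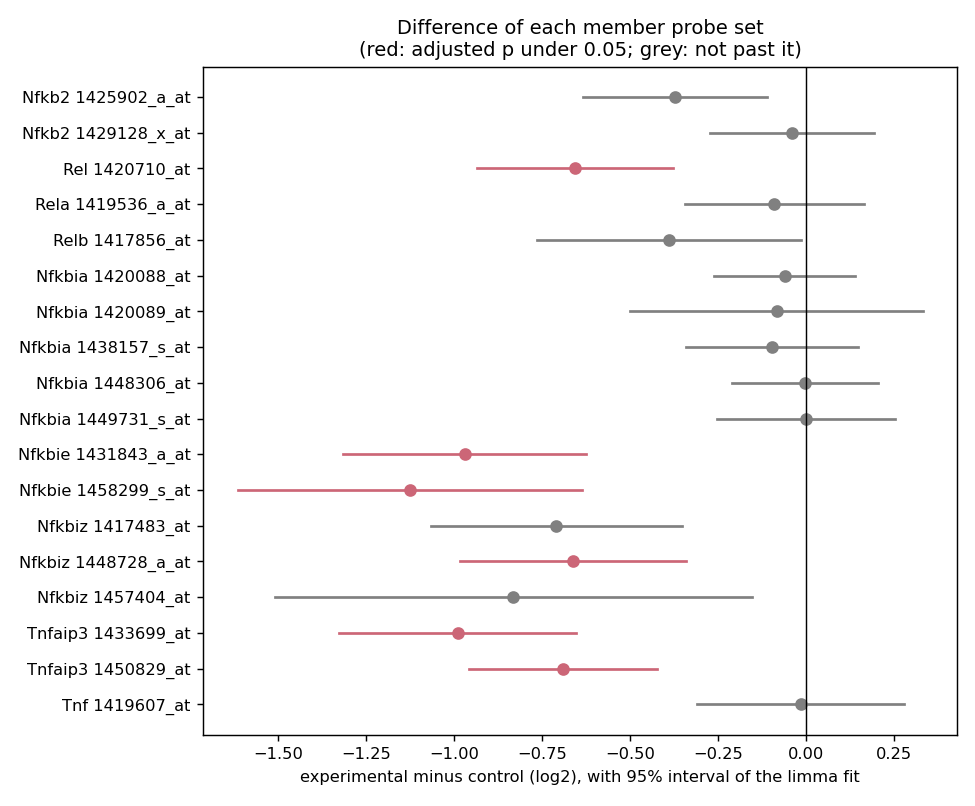
The difference between experimental and control arrays (horizontal axis, log2) is drawn for each of the 18 member probe sets, with the 95% interval of the limma fit and in red where the adjusted p is under 0.05. The red intervals, of Rel, Nfkbie, Nfkbiz at 1448728_a_at and Tnfaip3, lie below 0, and those of Rela, Nfkbia and Tnf span it.

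All 18 differences were at or below 0 in the values as deposited, against 49.4% below 0 of all probe sets, but those nearest to 0 changed sign under other settings. With median centring Nfkbia turned at 1448306_at and 1449731_s_at as well as Tnf, each to within 0.02 of 0. Probe sets of 1 gene share their RNA, so they are not separate observations of it.

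The sample codes in the labels have 2 styles, digit then letter for replicates 1 and 2 of each group and letter then digit for replicates 3 and 4, and the style went with a shared deviation of the arrays. Over all probe sets, deviations from the group mean correlated at 0.14 to 0.26 between a control and an experimental array of 1 style, and at -0.27 to -0.13 between those of different styles. Within a group, where such deviations sum to 0 and so lean towards negative r, the correlations were -0.16 to 0.19 in 1 style and -0.60 to -0.37 between styles. Within each style the members that fell were lower in the experimental arrays. Tnfaip3 at 1433699_at differed by -1.01 within replicates 1 and 2 and by -0.97 within replicates 3 and 4, and Nfkbie at 1458299_s_at by -0.995 and -1.26. Rel differed by -0.86 and -0.45, and Nfkbiz at 1448728_a_at by -0.63 and -0.69. Tnf had opposite signs (0.08 and -0.11), as did Nfkbia at 1448306_at and 1449731_s_at, all close to 0. With 2 against 2 arrays, no member passed by limma within replicates 1 and 2, where the adjusted p was 0.0990 for Tnfaip3 at 1433699_at, 0.106 for Rel and 0.182 for Nfkbiz at 1448728_a_at. Within replicates 3 and 4 both Nfkbie probe sets passed (0.0358 and 0.0467), and these genes did not (0.0585, 0.167 and 0.125). The share of all probe sets past the threshold within each style is not given here, so the members cannot be set against it. A test of the difference between the styles called none of the 18 member probe sets, by limma with an interaction term, against 0.0111% of all probe sets. None of the 18 had an unadjusted p under 0.05 (the smallest was 0.0978, for Rel), against 7.97% of all probe sets.

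**Figure D3:**
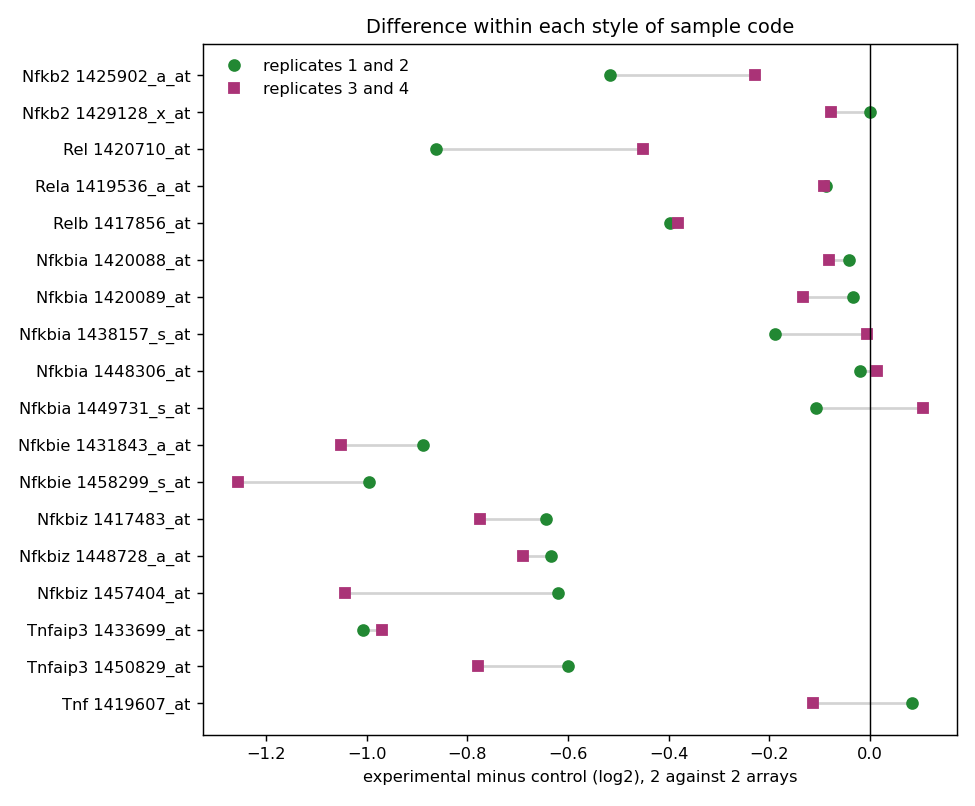
The difference between experimental and control (horizontal axis, log2, 2 against 2 arrays) is shown for each member probe set within replicates 1 and 2 (circles) and within replicates 3 and 4 (squares). Tnfaip3, Nfkbie, Nfkbiz, Rel and Relb lie below 0 in both, and Nfkbia and Tnf lie within 0.19 of 0.

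The rest of the pathway was read from 4 lists of 97 further measured genes, in which 2 rose and 10 fell, against 1.53% of all genes that rose and 1.95% that fell. With the replicate number as a block 7 rose and 12 fell, against 3.16% and 3.02% of all genes. These lists too were chosen with earlier results of these data known. Of 16 other inhibitors and deubiquitinases, Zfp36, which encodes a protein that destabilises cytokine transcripts such as that of Tnf, fell alone (10.92 ± 0.24 in controls and 10.14 ± 0.19 in experimental samples, difference -0.78 ± 0.14, adjusted p = 0.0233). The other IκB genes Nfkbib (0.10), Nfkbid (-0.10) and Bcl3 (-0.09) did not pass, nor did the deubiquitinase gene Cyld (-0.12). The median difference of this list was -0.09. The adjusted p of Zfp36 ranged from 0.0278 to 0.0689 when 1 array was left out, and the gene lost its call without either of control replicates 3 and 4 or of experimental replicates 1 and 4.

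Of 24 kinases and adaptors upstream of NF-kappaB, 1 rose and 1 fell, with a median of -0.09. Ikbke, which encodes the IκB kinase-related kinase IKKε that acts in the interferon response, rose from 8.08 ± 0.40 to 9.34 ± 0.31 (2.41-fold, 1.27 ± 0.21, adjusted p = 0.0169). Birc2, which encodes the ubiquitin ligase cIAP1, fell from 8.58 ± 0.13 to 8.12 ± 0.11 (-0.46 ± 0.10, adjusted p = 0.0426). The IκB kinase genes Ikbkb (-0.07) and Ikbkg (-0.24), the kinase gene of the alternative pathway Map3k14 (-0.08) and the Toll-like receptor adaptor gene Myd88 (0.06) did not pass. Ikbke did not pass without control replicate 1 or 2 (its adjusted p spanned 0.0253 to 0.0585 across the 8 fits without 1 array), and Birc2 passed only without experimental replicate 2 (0.0399 to 0.133 over the 8 fits).

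Of 19 TNF superfamily ligands and receptors, 1 rose (2 with the replicate number as a block) and 2 fell, with a median of -0.15 and 12 below 0. The gene added by the block was Tnfrsf14 (1.34, adjusted p = 0.0480 with the block and 0.117 without it). It was higher in every experimental array than in any control. Tnfsf14, which encodes the ligand LIGHT, fell from 8.70 ± 0.20 to 7.77 ± 0.23 (-0.93 ± 0.14, adjusted p = 0.0123) and kept its call whichever array was left out. Tnfrsf13c, which encodes the BAFF receptor of B cells, fell from 6.62 ± 0.56 to 5.18 ± 0.27 (-1.44 ± 0.25, adjusted p = 0.0219). Tnfrsf9, which encodes the costimulatory receptor 4-1BB, rose at a low level from 4.67 ± 0.22 to 5.45 ± 0.19 (0.78 ± 0.14, adjusted p = 0.0201), where the array medians were 5.01 to 5.04. The receptor genes of Tnf itself, Tnfrsf1a (-0.29, adjusted p = 0.133) and Tnfrsf1b (-0.20), did not pass, and neither did Adam17, which encodes the protease that releases TNF (-0.32, adjusted p = 0.0875). Tnfrsf9 did not pass without control replicate 1, 2 or 3 (0.0209 to 0.0642 over the 8 fits), nor Tnfrsf13c without control replicate 2 or experimental replicate 4 (0.0238 to 0.0664 over the 8 fits).

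Of 38 genes listed as NF-kappaB targets, 6 fell and none rose, with a median of -0.10 and 20 of 38 below 0. Il1b, which encodes the cytokine interleukin 1β, fell 2.90-fold (10.04 ± 0.33 to 8.51 ± 0.47, -1.53 ± 0.24, adjusted p = 0.0137) and passed in each fit that leaves out 1 array. Ptgs2, which encodes cyclooxygenase 2, fell from 5.35 ± 0.50 to 3.61 ± 0.49 (adjusted p = 0.0162). Ccr7, a homing receptor gene of dendritic cells and lymphocytes, fell by 0.93 to 4.43 ± 0.18 (adjusted p = 0.0151). Both ended below the array medians, so the size of each fall is uncertain. Slc2a6, a sugar transporter gene, fell by 1.34 (adjusted p = 0.0174). Csf1 and Cd83 fell too, but Csf1 kept its call only without experimental replicate 2 and Cd83 only without experimental replicate 2 or 3. Cd83 ended at 4.62 ± 0.75, also below the array medians. Ptgs2 (0.0516) and Ccr7 (0.0505) missed the threshold without control replicate 4, and Slc2a6 (0.0512) without experimental replicate 1. The cytokine genes Il6 (-0.49), Cxcl2 (-0.13) and Ccl3 (0.43) did not pass, nor did Sod2 (0.17) or Nlrp3 (-0.62). Il6 lay below the array medians in both groups (3.89 in controls and 3.40 in experimental arrays). With the replicate number as a block 4 rose, Ccl4 (0.60), Ccl5 (1.88), Saa3 (1.32) and Ccnd1 (0.48). The same fit had 8 that fell, with Ier3 (-0.62) and Marcks (-0.71) added. Without the block these 4 rises did not pass (adjusted p = 0.0554, 0.0734, 0.0912 and 0.272). Ccl4 and Saa3 were higher in every experimental array than in any control, and Marcks was lower in every one. Of the list, 4 fell when control replicate 1, 2 or 3 or experimental replicate 4 was left out, 3 when experimental replicate 1 was, and 2 when control replicate 4 was.

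**Figure D4:**
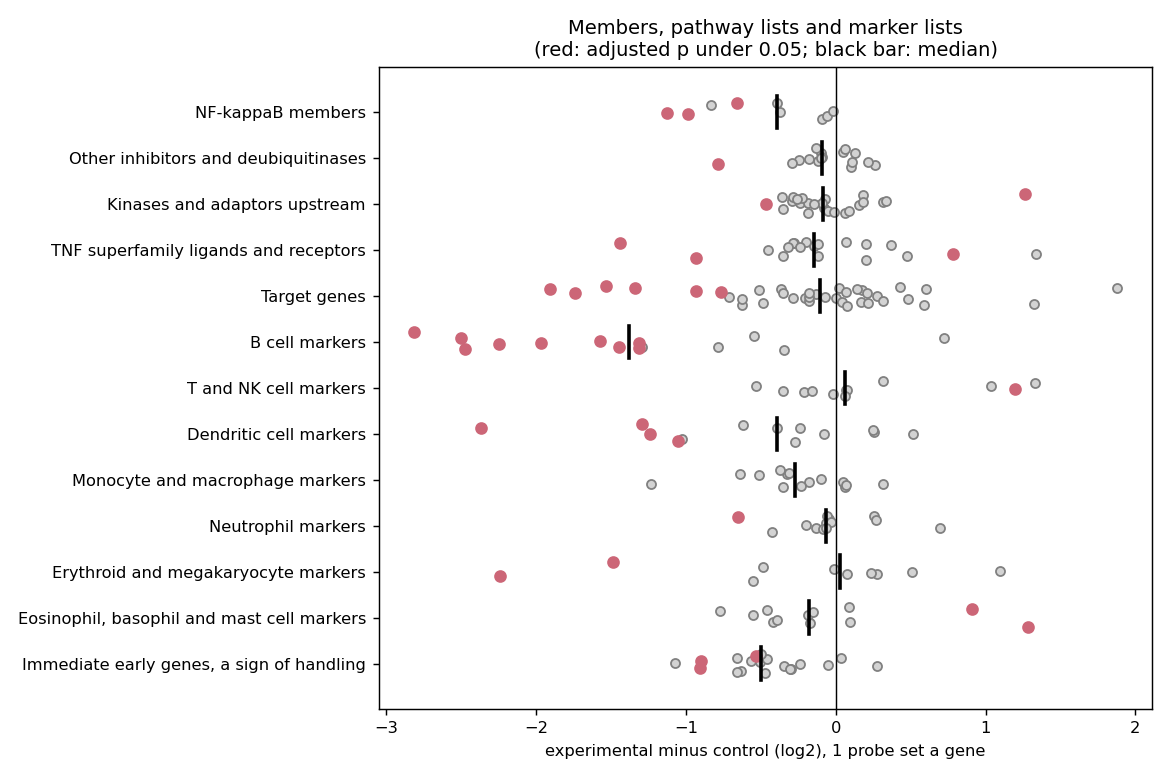
Each point is the difference of 1 gene between experimental and control (horizontal axis, log2) at its brightest probe set, for the 9 members, the 4 pathway lists and 8 lists of cell markers and handling, with red for adjusted p under 0.05 and a black bar at the median. The members have a median of -0.39, the pathway lists of -0.15 to -0.09, and the B cell markers of -1.38.

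Markers of B cells and of dendritic cells were lower in the experimental arrays. Of 14 measured B cell markers, 9 fell and none rose, with a median of -1.38, and the log2 of their summed linear level ranged from 11.14 to 11.88 in controls and from 9.98 to 10.76 in experimental arrays. Cd79a (-1.57 ± 0.16), Ms4a1 (-2.82 ± 0.42) and Spib (-2.48 ± 0.30) were among those that fell. Ebf1 (-1.29, adjusted p = 0.0804) and Pax5 (-0.35, adjusted p = 0.149) did not pass. Of the 14, 3 had a mean level below the array median. With the replicate number as a block 10 fell and 1 rose, Bank1 (0.73 ± 0.15, adjusted p = 0.0390), a B cell adaptor gene that did not pass without the block. Without control replicate 2 it was 5 that fell, and 6 without control replicate 1 or 4. Of 13 dendritic cell markers, 4 fell and none rose (median -0.39), and their summed level ranged from 12.42 to 12.79 in controls and from 12.07 to 12.24 in experimental arrays, with Cd209a (-2.37 ± 0.32) and Siglech (-1.29 ± 0.20; adjusted p = 0.0501 without control replicate 2) lower. It was 1 gene without control replicate 2, and 2 genes without experimental replicate 1. Rel and Tnfrsf13c are known to be expressed in B cells and Ccr7 and Cd83 in dendritic cells and B cells, and the part of these cells in the differences of the members was not tested. The cells had been sorted for Cd11b, which most B cells lack, but Ms4a1 (8.60 ± 0.47) and Cd79a (7.83 ± 0.19) lay above the array medians in controls. The share of B cells in the sorted samples was not tested. In bulk samples, fewer cells of a type and less RNA per cell cannot be told apart.

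Monocyte and macrophage markers had none of 14 past the threshold by limma (3 at an unadjusted p under 0.05), with summed levels of 13.51 to 13.97 in controls and 12.94 to 13.89 in experimental arrays. Of 13 neutrophil markers, Csf3r fell alone (-0.65 ± 0.09, adjusted p = 0.00943). Their summed level (17.29 to 17.38 and 17.27 to 17.35) is carried by genes such as S100a9 (14.49 ± 0.04 in controls), Camp and S100a8 (14.40 ± 0.07), close to the highest value on an array (14.36 to 14.54), so it cannot show whether the share of these cells differed. Among the dimmer markers, Mmp8 (-0.20), Cxcr2 (-0.43), Elane (0.26) and Prtn3 (0.70) did not pass. Of 12 T and NK cell markers, Cd5 rose (1.19 ± 0.18, adjusted p = 0.0116), with a list median of 0.07. Of 12 markers of eosinophils, basophils and mast cells, Epx (0.91 ± 0.12) and Siglecf (1.28 ± 0.25) rose, while 8 lay below 0 (median -0.18). Siglecf lost its call without any 1 control or experimental replicate 1. Gata2 of this list fell with the replicate number as a block (-0.55, adjusted p = 0.0494). Among 10 erythroid and megakaryocyte markers the platelet genes Pf4 (-1.49 ± 0.12) and Ppbp (-2.24 ± 0.34) fell. Only 5 of the 10 lay below 0 (median 0.03). With the replicate number as a block Itga2b fell too (-0.49, adjusted p = 0.0357) and Alas2 rose (1.10, adjusted p = 0.0342). The summed levels of these last 3 lists overlapped between the groups.

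Immediate early genes, which rise within minutes of stress or handling and several of which respond to the same signals as NF-kappaB, were lower as well. Of 19, 3 fell and none rose: Ier2 (-0.53 ± 0.09), Nr4a1 (-0.90 ± 0.19) and Atf3 (-0.90 ± 0.19). Their median difference was -0.50 and 17 of 19 lay below 0. Their summed level ranged from 13.57 to 13.72 in controls and from 12.92 to 13.35 in experimental arrays, with no overlap. Those that fell by limma numbered 7 with the replicate number as a block and 5 without experimental replicate 2. Leaving out control replicate 3 left 2, leaving out control replicate 1 or experimental replicate 1 left 1, and leaving out control replicate 2, control replicate 4 or experimental replicate 4 left 0, against 9 at an unadjusted p under 0.05 in the fit of all arrays. Beta-actin probe sets at the 3′ and 5′ ends of the transcript, whose ratio reports on RNA integrity, also separated the groups (log2 ratios of 0.27 to 0.32 in controls and 0.34 to 0.54 in experimental arrays), while that of Gapdh overlapped. Handling and RNA integrity were not tested for their part in the differences of Rel, Nfkbie, Nfkbiz and Tnfaip3.

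**Figure D5:**
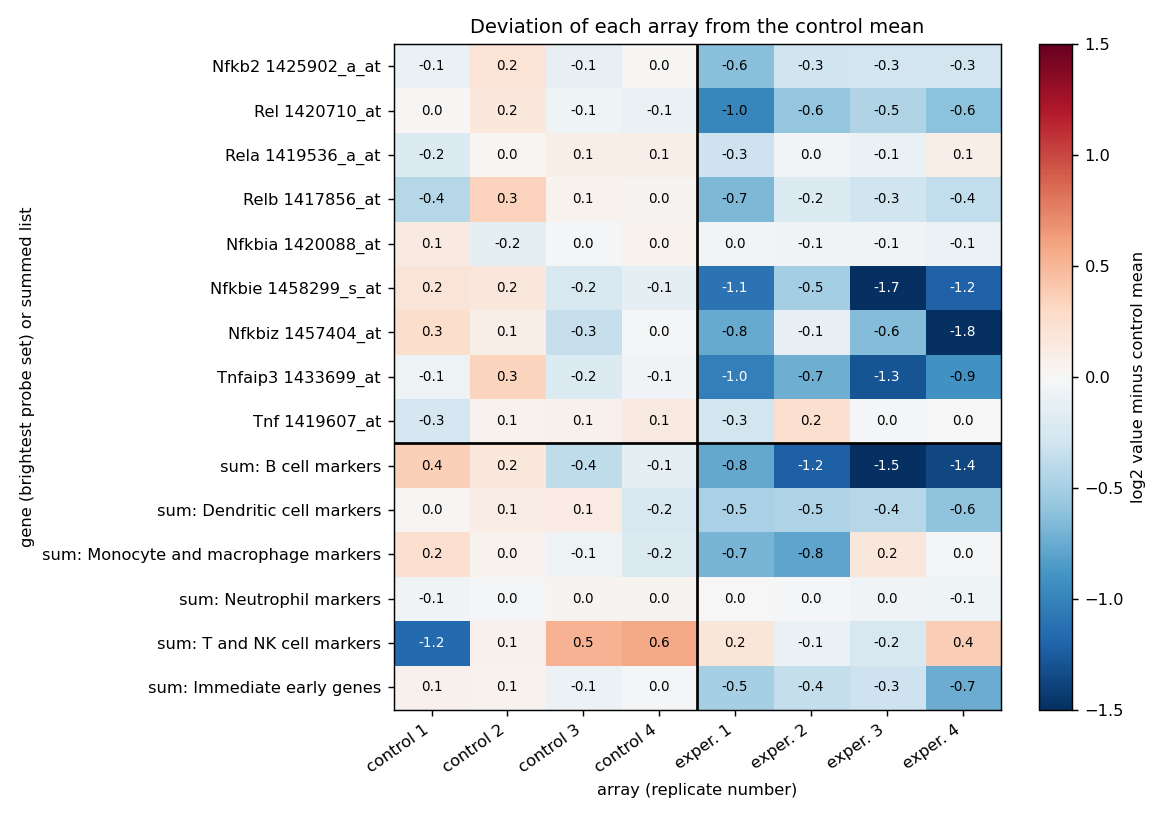
Each cell gives the log2 value of 1 array (columns, control and experimental replicates 1 to 4) minus the control mean, for the brightest probe set of the 9 members and for the summed level of 6 lists (rows), with colours limited to 1.5 units on either side. Rel, Nfkbie, Tnfaip3, Nfkb2, Relb and Nfkbiz are below the control mean in all 4 experimental arrays, though Relb and Nfkbiz overlap the controls. The B cell markers, the dendritic cell markers and the immediate early genes are also below it in all 4, and Nfkbia stays near 0. The neutrophil row sums genes near the top of the scale and cannot show a change well.

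Within the experimental group the members and the markers did not keep 1 order of arrays. Experimental replicate 2, the only array of its group inferred to be male, had the highest values of Nfkbie, Nfkbiz and Tnfaip3 at every probe set. Its summed B cell level (10.30) lay between those of replicate 1 (10.76) and replicate 4 (10.16). Experimental replicate 1 had the highest summed B cell level of its group and the lowest Rel, Relb and Nfkb2 at 1425902_a_at. Experimental replicate 4 had the lowest Nfkbiz at 1448728_a_at and 1457404_at and the lowest summed level of immediate early genes (12.92). These are descriptions of 4 arrays and were not tested.

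Genes with the most similar pattern were sought for the 4 members with the largest differences, as Pearson r over the 8 arrays of deviations from the group means, among 8752 genes with a mean of at least 6. For Nfkbie these were Zyg11b (0.99), Cbl (0.99) and Ormdl1 (0.99), and for Tnfaip3 they were Ptger4 (0.99), Mob3a (0.97) and Stk10 (0.97). For Nfkbiz they were Itgb2l (0.98), Eml2 (0.97) and Il18bp (0.96), and for Rel Slc30a6 (0.97), Mrpl1 (0.97) and Scfd1 (0.96). No other member was among them. With 8 arrays, 2 code styles and so many genes searched, values this high are a description only.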

How the data were processed

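The deposited table holds log2 values per probe set of an Affymetrix mouse array, made by the authors with RMA per the submitters' processing notes, which give no version. No source used here says whether RMA was run on the 8 arrays jointly. The cells had been sorted on Cd11b, and 2.5 µg of total RNA per sample was labelled with biotin. Of 45101 probe sets, 64 Affymetrix controls were left out. The platform annotation gave 34945 of the 45037 tested 1 gene symbol, 932 several and 9160 none, and only the first were used by name. A gene was represented by its brightest probe set.

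Groups (4 control, 4 experimental) came from the sample titles. Differences came from limma 3.58.1 (R 4.3.3) with lmFit, eBayes and a single term for group, and p-values were adjusted by Benjamini-Hochberg over all probe sets tested, at a threshold of 0.05. The number of arrays limits the precision. Lists were described by counts and medians, without a set test. The summed level of a list is the log2 of the sum of linear values over its measured genes. The members and the lists were chosen with earlier results of these data known. The text names every member probe set, up to 4 genes per pathway list with the smallest p past the threshold, and other list genes chosen after their values were seen.

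Same-numbered arrays of both groups deviated together (r of 0.20 to 0.26 in all 4 pairs). Replicate numbers were used as a block in an alternative fit only, and the fit reported is unpaired. Differently numbered arrays of both groups with the same style of sample code correlated as well (0.14 to 0.26), so pairing by number and a shared style cannot be told apart. Alternatives were the replicate number, code style or inferred sex as a block, median centring, quantile normalization, 2 filters on low values, trended and robust variance, array weights, other probe sets of a gene, and leaving out each array.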

Additional observations from a re-analysis of the deposited data

Results flagged for a closer look

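Of 36 groups of 4 arrays (18 member probe sets in 2 groups), 2 held an array far from the other 3, where chance gives about 1 in 20, or 1.8 of 36. The number found is thus near what chance gives. Nfkb2 at 1425902_a_at read 7.06 in experimental replicate 1, below 7.39 to 7.41 in the other 3. Nfkbia at 1448306_at read 10.86 in control replicate 1, above 10.60 to 10.64 in the other 3. Neither probe set passed the test between the groups.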

How the results depend on the processing

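The members past the threshold were lower under every alternative run, and none of the 9 gene differences reversed a call. The number of member genes past the threshold was 3 in the fit reported and 1 with inferred sex as a block, that of member probe sets 6 and 3. With the replicate block, which changed no call of a member gene, 7 member probe sets passed, Nfkbiz at 1417483_at (adjusted p = 0.0252) being added. Over all probe sets the count was 1162, and it was 2277 with the replicate block, 2582 with code style as a block and 663 with inferred sex as a block. Of 97 pathway genes 12 passed, 19 with the replicate block and 20 with code style as a block. Leaving out 1 array gave 1 to 3 member genes, 2 to 7 member probe sets, 6 to 15 pathway genes and 395 to 1744 probe sets in all. The count of member genes was 1 without any 1 of the 4 controls or without experimental replicate 4. Nfkbiz at 1448728_a_at did not pass with median centring, quantile normalization or trended and robust variance. The cause of these changes was not tested. With 4 arrays a group, small differences such as those of Rela, Nfkbia and Tnf are bounded only by the intervals given.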
